A study of Mus musculus with 22 samples.

Results

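The 10 genes described here encode the mouse enzymes that place, copy and remove DNA methylation, with their closest cofactors, and they were chosen by name from the 37991 genes of the count tables. They are the maintenance methyltransferase Dnmt1 and its cofactor Uhrf1, the de novo methyltransferases Dnmt3a and Dnmt3b with the catalytically inactive cofactor Dnmt3l, the dioxygenases Tet1, Tet2 and Tet3, and the DNA glycosylases Tdg and Mbd4. Wild-type embryos (Rlf +/+) were compared with embryos homozygous for Rlf MommeD28, a null allele from an ENU mutagenesis screen. All mice were of the FVB/NJ Line3 strain and carried, in both genotypes, many copies of a GFP reporter under a human alpha-globin promoter with its distal enhancer, and the embryos came from crosses of heterozygous parents. DNA methylation was measured by whole genome bisulphite sequencing (WGBS) in 2 wild-type and 2 mutant samples at each of 3 stages, which were whole embryo at E10.5 (all male), liver at E14.5 (1 male and 1 female of each genotype) and liver at E18.5 (all female). Messenger RNA was sequenced from 3 wild-type and 3 mutant E14.5 livers, 2 male and 1 female of each genotype. No treatment was given, and the H3K4me1 samples of the study are not analysed here.

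Methyl groups on the cytosines of CpG dinucleotides are laid down by DNMT3A and DNMT3B, and after replication DNMT1 copies them onto the new strand at hemimethylated sites that UHRF1 recognises. The TET enzymes oxidise 5-methylcytosine, and TDG then cuts out the more oxidised bases so that base excision repair restores an unmodified cytosine. Fetal liver is a site of rapid blood cell production, where DNMT3A and TET2 are known for their roles in blood stem and progenitor cells, and bisulphite sequencing reads 5-methylcytosine and 5-hydroxymethylcytosine alike.

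The RNA libraries held 12928313 to 14621004 counted reads each. The WGBS libraries had a mean of 14.997 to 17.0 reads per CpG at E10.5, 29.5 to 33.3 at E14.5 and 16.2 to 16.8 at E18.5, and 0.0412 to 0.0775% of the cytosines of the unmethylated lambda spike-in read as unconverted. The methylation level over the CpGs read at least 6 times in every library of a stage was 69.7 and 71.0% in the wild-type and 72.5 and 72.9% in the mutant E10.5 embryos, 56.3 and 58.3% against 60.2 and 59.1% in the E14.5 livers, and 60.9 and 61.2% against 64.9 and 60.9% in the E18.5 livers. Mutant replicate 1 at E18.5 therefore stood apart from the other 3 libraries of its stage, and the E18.5 differences of called starts, shores and tiles, and the medians over the members at E18.5, are also given without it. Rlf itself had 70.2, 72.1 and 68.5 CPM (reads scaled to the library total) in the wild-type livers and 76.6, 79.9 and 67.3 CPM in the mutants (log2 difference 0.08, SE 0.07, edgeR adjusted p = 0.646), so that gene counts do not check the genotype of this point mutation. In bulk tissue, fewer cells of a type and less RNA per cell cannot be told apart.

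On mm9, Dnmt1 spans chr9:20711650-20757317 on the minus strand and Uhrf1 chr17:56442744-56462909 on the plus strand. Dnmt3a (ENSMUSG00000020661) spans chr12:3806007-3914443, Dnmt3b chr2:153475186-153513466 and Dnmt3l (ENSMUSG00000000730) chr10:77504692-77526367, all on the plus strand. Tet1 at chr10:62267318-62361866, Tet2 at chr3:133126643-133207354 and Tet3 at chr6:83312367-83391672 are on the minus strand, as is Mbd4 at chr6:115790715-115803389, and Tdg lies at chr10:82092573-82113544 on the plus strand.

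Sequences are shown for the 5 stretches that the results turn on, each read 5′ to 3′ on the strand of the gene from the NCBIM37 (mm9) reference, with every CpG in capitals. The reference is not of the FVB strain. None of the 5 overlaps an annotated exon. The first lies directly upstream of an internal start of Dnmt3l, the only main start among the members that was called between the genotypes over the 12 WGBS libraries.

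Dnmt3l, upstream of the internal start (NCBIM37, chr10:77512337-77512586, plus strand): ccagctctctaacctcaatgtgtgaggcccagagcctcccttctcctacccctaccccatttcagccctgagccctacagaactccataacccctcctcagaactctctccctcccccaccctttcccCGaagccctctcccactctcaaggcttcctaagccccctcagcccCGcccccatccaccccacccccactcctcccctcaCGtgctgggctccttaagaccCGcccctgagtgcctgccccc

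The next 3 lie upstream of starts with little or no methylation, namely RefSeq starts of Dnmt3a, which was the only member with a called mRNA change, of Dnmt1 and of Tet1. Those of Dnmt3a and Dnmt1 lie within the window read at the main start.

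Dnmt3a, upstream of the RefSeq start by the main start (NCBIM37, chr12:3806730-3806979, plus strand): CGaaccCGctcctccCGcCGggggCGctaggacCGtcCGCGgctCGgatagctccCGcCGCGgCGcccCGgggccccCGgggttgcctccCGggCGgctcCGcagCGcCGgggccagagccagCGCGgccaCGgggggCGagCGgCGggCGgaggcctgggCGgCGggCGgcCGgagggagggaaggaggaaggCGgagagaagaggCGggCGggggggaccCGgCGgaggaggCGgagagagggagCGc
Dnmt1, upstream of the RefSeq start by the main start (NCBIM37, chr9:20757424-20757673, minus strand): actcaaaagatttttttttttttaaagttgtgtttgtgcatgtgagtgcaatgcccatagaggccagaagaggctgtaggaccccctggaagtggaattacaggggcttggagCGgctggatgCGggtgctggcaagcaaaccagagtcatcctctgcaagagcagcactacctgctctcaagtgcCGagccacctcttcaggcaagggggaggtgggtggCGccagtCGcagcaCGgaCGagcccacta
Tet1, upstream of the RefSeq start (NCBIM37, chr10:62350073-62350322, minus strand): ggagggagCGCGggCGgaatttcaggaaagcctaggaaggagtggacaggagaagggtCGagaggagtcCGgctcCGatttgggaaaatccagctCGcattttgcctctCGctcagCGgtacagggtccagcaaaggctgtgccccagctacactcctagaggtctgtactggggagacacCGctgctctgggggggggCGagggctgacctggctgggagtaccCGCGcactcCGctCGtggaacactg

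The last comes from an intron of Dnmt3a and is part of the 1 kb tile that passed the test at E10.5.

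Dnmt3a, intron, within the called tile (NCBIM37, chr12:3825709-3825958, plus strand): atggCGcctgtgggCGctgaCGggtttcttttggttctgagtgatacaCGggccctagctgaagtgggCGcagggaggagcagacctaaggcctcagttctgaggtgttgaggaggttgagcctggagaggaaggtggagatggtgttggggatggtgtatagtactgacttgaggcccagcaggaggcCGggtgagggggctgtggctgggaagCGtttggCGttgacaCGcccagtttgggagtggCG

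The 250 bases upstream of the Dnmt3l start hold 4 CpGs, against 38 upstream of Dnmt3a, 7 upstream of Dnmt1 and 15 upstream of Tet1. Over the 4 CpGs of the Dnmt3l stretch the methylation level was 55.2 and 48.9% in the wild-type and 58.1 and 63.0% in the mutant E10.5 embryos, 25.8 and 23.8% against 34.4 and 41.3% at E14.5, and 47.7 and 19.5% against 47.6 and 43.5% at E18.5, with 41 to 80 reads behind each value. The mutants lay above the wild types at E10.5 and E14.5, and the ranges overlapped at E18.5. The 38 CpGs upstream of Dnmt3a were close to free of methylation, with at most 0.218% in any of the 12 libraries from 812 to 1556 reads. The highest level in any library was 0.285% upstream of Dnmt1 and 1.29% upstream of Tet1. In the 250 bases of the Dnmt3a intron, 10 CpGs were methylated at 51.1 and 53.5% in the wild-type and 65.4 and 68.5% in the mutant E10.5 embryos, so here the genotypes did not overlap.

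Expression was measured in the E14.5 livers as reads per gene. On the scale that corrects for length (RPKM, the CPM divided by exon length in kilobases), the maintenance pair led the order of the wild-type means, with Dnmt1 at 71.9 and Uhrf1 at 67.001 RPKM. Tet3 (7.34), Dnmt3a (6.49), Mbd4 (5.34) and Dnmt3b (4.12 RPKM) formed a middle group, and Tet2 (1.11), Tet1 (0.437) and Tdg (0.166 RPKM) were low. Neighbours in this order did not overlap in the 3 wild-type livers. The exon length merges the exons of all annotated transcripts, 16642 bases for Dnmt3a and 11086 for Tet3. The order of these 2 genes depends on it, since the wild-type mean was 108 CPM for Dnmt3a and 81.4 CPM for Tet3. In the mutant livers, the ranges of Dnmt1 and Uhrf1, of Tet3 and Dnmt3a and of Mbd4 and Dnmt3b overlapped. Dnmt3l, which is known for its role in germ cells, had no read in any of the 6 livers, and a level of up to 0.205 to 0.232 CPM, the worth of 3 reads, is allowed by such a count. The level of Tdg is uncertain, because 49.2% of the 50-base stretches of its exons occur elsewhere in the genome. The same share was 23.1% for Uhrf1 and 8.49% for Dnmt3b, and at most 2.40% for each of the other members.

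**Figure D1:**
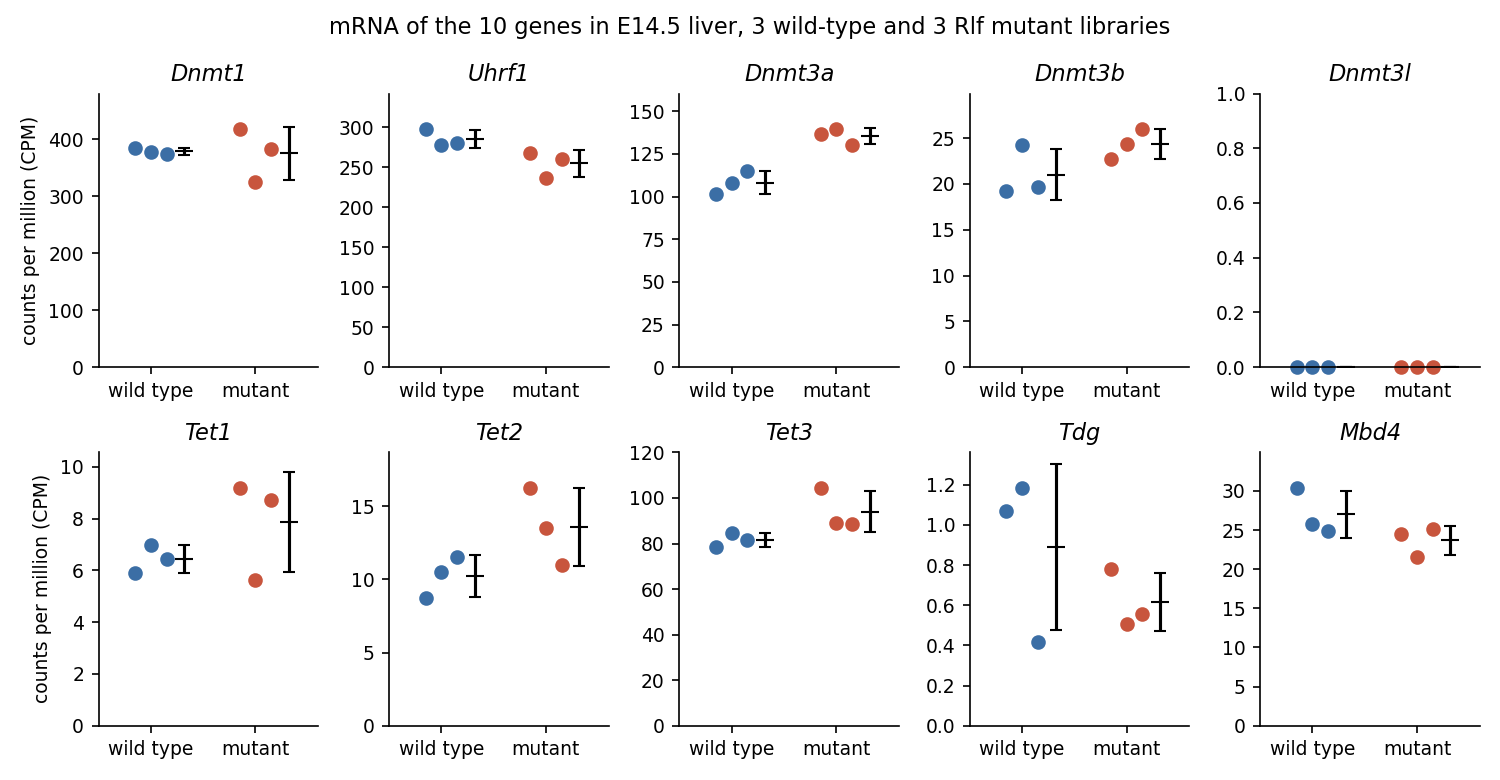
CPM of the 10 genes in each of the 3 wild-type and 3 mutant E14.5 livers, 1 panel per gene with its own axis from 0, with the mean and SD beside the points. Dnmt3a and Tet3 lay higher in every mutant than in any wild type, Uhrf1 lay lower, and Dnmt3l was at 0 throughout.

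The comparison of mutant with wild-type livers asks whether the mRNA of these enzymes differed where methylation was higher. Dnmt3a was higher in the mutants by 1.25-fold and was the only 1 of the 9 tested members to pass the test, whereas 1.39% of the 14183 genes tested across the table passed it, 0.698% of them as higher in the mutants. The de novo methyltransferase Dnmt3a had 101.4, 108 and 115 CPM in the wild-type livers and 136, 139 and 130 CPM in the mutants (log2 difference 0.32, SE 0.06, 95% interval 0.18 to 0.46, edgeR adjusted p = 0.0319). All 3 mutants lay above all 3 wild types. The call depended on single libraries. It was kept without wild-type replicate 2 (adjusted p = 0.0438) and was lost without wild-type replicate 1 (0.0808), wild-type replicate 3 (0.0561), mutant replicate 1 (0.102), mutant replicate 2 (0.0761) or mutant replicate 3 (0.0944), while the log2 difference stayed between 0.28 and 0.37. With replicate number as a block the edgeR adjusted p was 0.00977, and that fit called 460 genes, or 3.24%, in place of 197. Counting did not use strand, and Gm10485 shares 133 exon bases with Dnmt3a.

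The other members of the methylating group did not pass the test. Dnmt1 had 385, 378 and 373 CPM in the wild-type and 417, 325 and 382 CPM in the mutant livers (log2 difference -0.02, 95% interval -0.20 to 0.16), so the mutants spread on both sides of the wild types. Uhrf1 had 298, 279 and 280 CPM against 268, 236 and 261 CPM (log2 difference -0.17, SE 0.07, edgeR adjusted p = 0.290). Each mutant lay below each wild type for Uhrf1. Dnmt3b had 19.2, 24.2 and 19.7 CPM against 22.7, 24.4 and 26.0 CPM (log2 difference 0.21, SE 0.11, edgeR adjusted p = 0.397), and the groups overlapped.

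None of the 5 demethylation genes passed. Tet3, the most abundant dioxygenase here, had 78.3, 84.4 and 81.5 CPM in the wild types and 104.5, 88.9 and 88.6 CPM in the mutants (log2 difference 0.20, SE 0.07, edgeR adjusted p = 0.210), with each mutant above each wild type. Tet2 had 8.71, 10.54 and 11.5 CPM against 16.3, 13.5 and 11.0 CPM (log2 difference 0.39, SE 0.15, 95% interval 0.06 to 0.73, edgeR adjusted p = 0.264), and mutant replicate 3 lay within the wild-type range. Tet1 had 5.88, 6.98 and 6.42 CPM against 9.19, 5.64 and 8.73 CPM (log2 difference 0.28, SE 0.18, edgeR adjusted p = 0.518). The glycosylases were the members with lower means among the demethylation genes. Mbd4, which removes thymine from the mismatches that deamination of 5-methylcytosine leaves, had 30.4, 25.8 and 24.8 CPM against 24.5, 21.6 and 25.1 CPM (log2 difference -0.19, SE 0.10, edgeR adjusted p = 0.407). Tdg had 1.07, 1.19 and 0.419 CPM against 0.779, 0.506 and 0.559 CPM, and its interval of -1.46 to 0.37 on the log2 scale spans both directions. Both groups overlapped for Mbd4 and for Tdg.

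Of the 9 tested members, 5 had a higher and 4 a lower mean in the mutants, and their median log2 difference was 0.20, against -0.002 over all tested genes. Without any overlap, 2 members lay above (Dnmt3a and Tet3, where 10.8% of all genes did so) and 1 below (Uhrf1, where 9.29% did so). At an unadjusted p below 0.05, 4 members passed, with 14.6% of all genes.

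Genes that work with these enzymes were examined as lists, and none of their members passed the test. Among 12 tested partners of the methyltransferases the log2 difference ran from -0.18 for Cdca7, a cofactor of the HELLS remodeller, to 0.57 for Zfp57, which holds methylation at imprinted loci. Hells, the remodeller that opens nucleosomes to methylation, differed by -0.08 and Trim28, a corepressor, by 0.00027. In the 9 methyl-binding genes the range was -0.14 to 0.22, with Mbd2, which binds methylated CpGs, at -0.08. The 8 tested regulators of TET activity ran from -0.16 to 0.61, with Ogt, a TET-binding glycosyltransferase, at 0.15 and Idh1, which makes the TET cosubstrate, at -0.06. In a list of base excision repair genes that also held the cytosine deaminase Apobec1, 12 tested genes lay between -0.20 (Ung, the uracil glycosylase) and 0.28 (Apobec1). Among the 10 tested genes of methyl donor metabolism the lowest log2 difference was -0.69, for Bhmt, which remethylates homocysteine, with a mean of 24.6 CPM in the wild-type and 15.3 CPM in the mutant livers (edgeR adjusted p = 0.133).

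Since Dnmt1 and Uhrf1 are known to be made mainly in dividing cells, 20 genes of DNA replication and mitosis were read beside them. None passed the test, 19 had a lower mean in the mutants with a median log2 difference of -0.12, and 9 lay below the wild types without overlap (9.29% of all genes did so), Mcm5, Rrm1 and Cdk1 among them. Their summed level ran from 7800 to 8830 CPM in the wild types and from 7068 to 8487 CPM in the mutants. Markers of other cell types also moved. In the neutrophil list 4 of 7 genes were called as lower in the mutants, where 0.691% of all tested genes were. They were Ngp (log2 difference -0.93), Elane (-0.76), S100a9 (-0.69) and S100a8 (-0.67). Of the 7 genes, 6 had a lower mean and 1 a higher one. The summed level of the list was 804 to 1163 CPM in the wild types and 681 to 807 CPM in the mutants. Of 7 macrophage genes 1, Cd5l, was called (-1.19), 3 had a lower mean and 4 a higher one, and the summed list was 619 to 665 against 572 to 604 CPM. Of 6 megakaryocyte genes 1, Pf4, was called (0.40), all 6 had a higher mean, 4 lay above the wild types without overlap (0.698% of all genes were called as higher and 10.8% lay above without overlap), and the summed list was 491 to 512 against 582 to 647 CPM. No hepatoblast, erythroid, endothelial or mesenchymal marker was called. All 6 endothelial genes had a higher mean in the mutants, 3 of them without overlap (10.8% of all genes), and their summed level was 268 to 294 CPM in the wild types and 298 to 345 CPM in the mutants. In the hepatoblast list 10 of 12 genes had a higher mean in the mutants (median log2 difference 0.11), and in the erythroid list 10 of 11 had a lower one (median -0.15). The hepatoblast sum was 58059 to 68708 CPM in the wild types and 71003 to 82979 CPM in the mutants, and the erythroid sum was 29609 to 54718 against 36902 to 39784 CPM. No defining marker of these lists was at 0 in all libraries. The part of these cell types in the Dnmt3a difference was not tested.

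Methylation was read within 1 kb on either side of each gene's main start. That was the GENCODE vM1 start of a protein-coding transcript with the most CpGs within that distance. RefSeq starts could not be chosen as main starts. For Tet1 the RefSeq start had 87 CpGs against 43 at the main start, which lies in exon 2 of a transcript that begins upstream. Methylation was also read in the shores, the 2 kb on each side of a CpG island at the main start. At the starts, 8 of the 10 members had a wild-type mean below 15% at every stage, and over all genes this held for 63.2, 59.6 and 60.4% at E10.5, E14.5 and E18.5. The exceptions were Dnmt3l and Tet1, the latter at its main start but not at its RefSeq start.

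The starts of Dnmt3a, Uhrf1 and Tet2 were nearly free of methylation, with at most 0.458, 0.769 and 0.327% in any library. Dnmt1 lay between 3.05 and 5.13%, Mbd4 between 4.89 and 7.03% and Tdg between 0.936 and 2.63%, and no order of the genotypes held at all 3 stages for any of them. Dnmt3b had 3.14 and 2.19% in the wild-type and 3.17 and 5.66% in the mutant E10.5 embryos (edgeR adjusted p = 0.344), 4.39 and 5.19% against 6.44 and 4.74% at E14.5, and 3.06 and 2.39% against 3.15 and 2.73% at E18.5. These ranges overlapped at E14.5 and E18.5.

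Dnmt3l was methylated at its main start, an internal one at position 77512587 of chromosome 10, and was higher in the mutants at every stage. The level was 79.8 and 81.6% in the wild-type and 85.7 and 86.9% in the mutant E10.5 embryos, 57.6 and 55.8% against 65.7 and 69.5% in the E14.5 livers, and 70.7 and 69.4% against 75.9 and 73.6% in the E18.5 livers. The genotypes did not overlap at any stage, which was also so for 7.93% of all genes. The differences of 5.56, 10.9 and 4.69 percentage points did not pass the test within a stage (edgeR adjusted p = 0.278, 0.310 and 0.723). Within 500 bases of the start they were 8.80 points at E10.5, 16.5 at E14.5 and 5.28 at E18.5, which did not pass either (edgeR adjusted p = 0.365, 0.625 and 0.794). In the E14.5 livers replicate 1 was male and replicate 2 female in each genotype, and with the replicate number as a block the adjusted p of Dnmt3l there was 0.00451, in a fit that called 5.07% of all genes. On autosomes alone, an alternative chosen after seeing the data, Dnmt3l passed at E14.5, where 3.3% of all autosomal genes did, and no member passed at E10.5 or E18.5, where 1.36 and 0.495% did. At E18.5 the difference was 3.55 points without mutant replicate 1. In the fit of all 12 libraries, with stage and genotype as terms, Dnmt3l was the only member called (log2 odds ratio of methylated to unmethylated reads 0.55, SE 0.10, edgeR adjusted p = 0.00442), and 5.80% of all genes were called there, 5.64% higher in the mutants. The exact permutation test within stages gave p = 0.00926, the smallest that its arrangements can give, which 8.10% of all genes reached, and the value adjusted over all genes was 0.114. Leaving out each library in turn kept the edgeR call, with log2 odds ratios of 0.50 to 0.60. Its difference between stages did not pass the test of the interaction (edgeR adjusted p = 1), and no gene in the table did (0%). The other annotated starts of Dnmt3l, 7.56 kb upstream and 5.49 kb downstream, were methylated as well. Their log2 odds ratios over the 12 libraries were 0.31 (SE 0.11, edgeR adjusted p = 0.117) and 0.32 (SE 0.11, adjusted p = 0.101). The gene had no reads in the RNA libraries of either genotype.

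**Figure D2:**
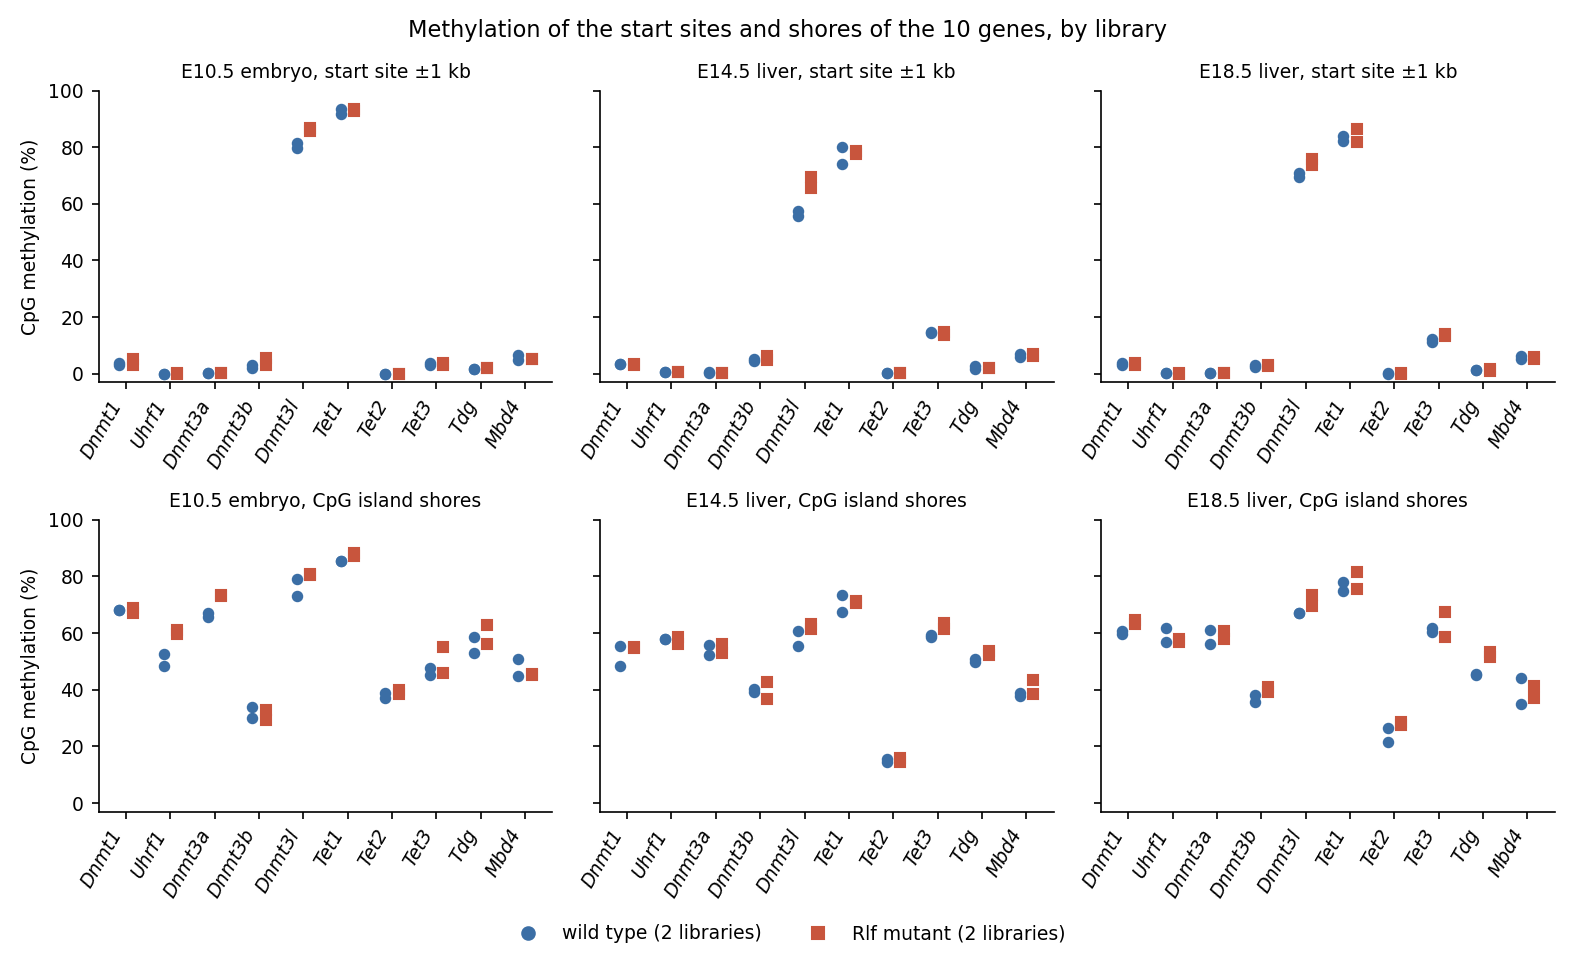
Methylation level, in percent, of the 10 genes in each library of the 3 stages, with the windows at the main starts in the upper panels and the shores in the lower panels. Dnmt3l and Tet1 stand at 55.8% or more at their starts at every stage while the other 8 lie below 15%, and the mutant points of Dnmt3l lie above its wild-type points at all 3 stages.

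For Tet1 and Dnmt1 the level depended on the start that was read. At the main annotated start of Tet1, position 62342762 on the minus strand of chromosome 10, the level was 93.6 and 91.6% in the wild-type and 93.6 and 92.9% in the mutant E10.5 embryos, 74.2 and 80.0% against 78.6 and 77.4% at E14.5, and 83.8 and 82.3% against 86.6 and 81.9% at E18.5. The RefSeq start, 7.31 kb upstream, was nearly unmethylated, with 0.321 to 0.730% at E10.5, 2.02 to 3.19% at E14.5 and 1.07 to 1.75% at E18.5. Dnmt1 showed the reverse arrangement. Its main start was low as given above, and the RefSeq start 7.02 kb upstream, where transcripts of the oocyte form are known to begin, had 84.2 and 90.2% in the wild-type and 89.7 and 91.5% in the mutant E10.5 embryos, 77.6 and 77.1% against 79.4 and 79.1% at E14.5, and 80.7 and 82.4% against 87.2 and 81.4% at E18.5. Neither upstream start was called between the genotypes over the 12 libraries (edgeR adjusted p = 0.730 for Tet1 and 0.268 for Dnmt1). The log2 odds ratios were -0.21 (SE 0.29) for Tet1 and 0.31 (SE 0.15) for Dnmt1, whose mutant mean was higher at each stage.

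**Figure D3:**
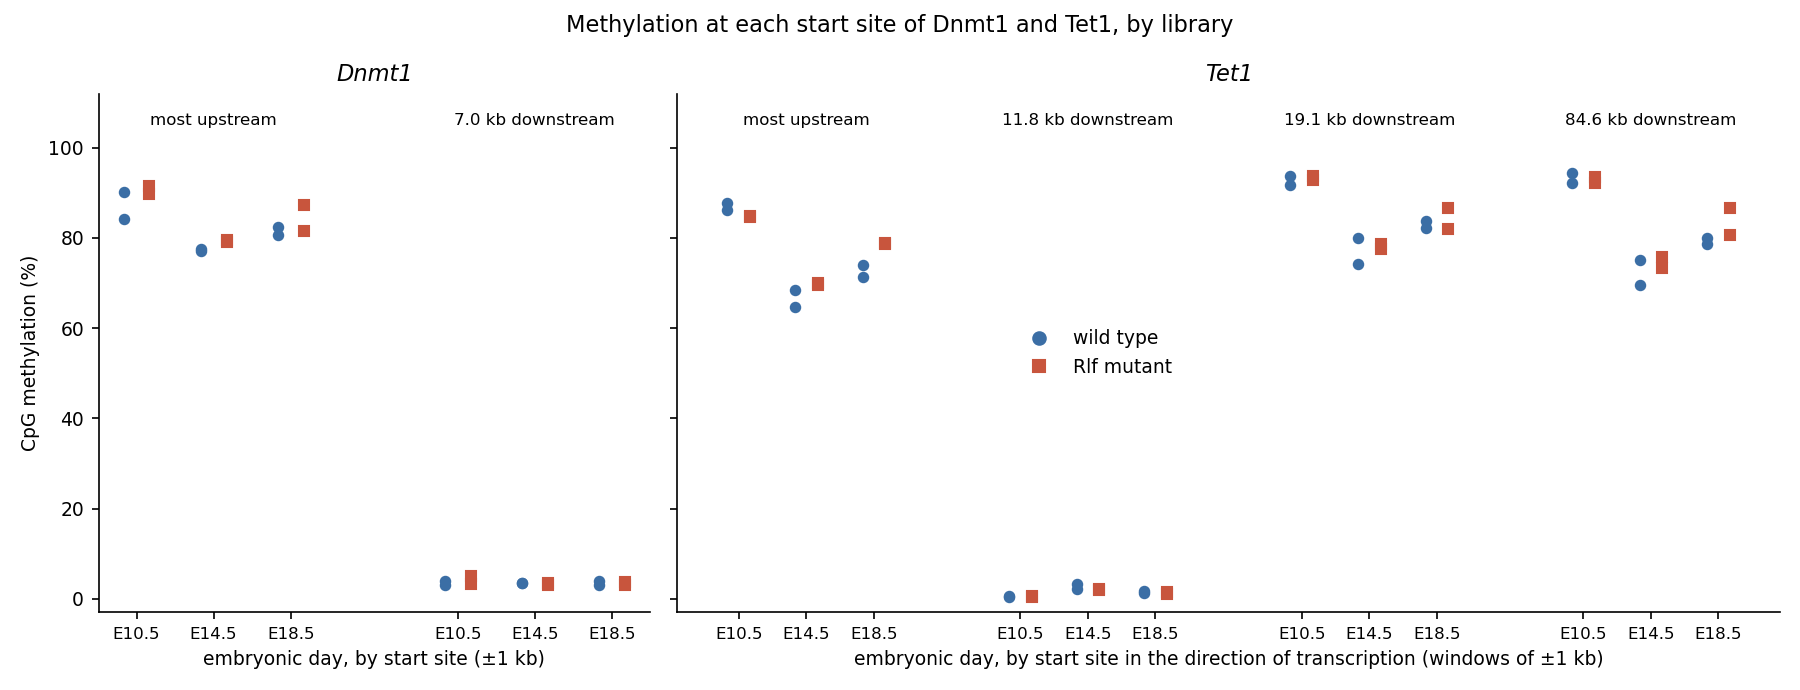
Methylation level, in percent, at 2 starts of Dnmt1 and 4 starts of Tet1 in each library, by stage, with wild-type and mutant points side by side. The upstream start of Dnmt1 lies between 77.1 and 91.5% and its main start at or below 5.13%, and 1 of the 4 starts of Tet1 is nearly free of methylation while the others stand between 64.6 and 94.3%.

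Stage moved the levels further than genotype did at several starts, although whole embryo and liver differ in tissue and in sex as well as in age, and these cannot be told apart. Tet3 rose from 3.78 and 3.10% in the wild-type E10.5 embryos to 14.4 and 14.7% in the wild-type E14.5 livers and stood at 12.3 and 11.3% at E18.5. The mutants had 3.72 and 2.96%, then 14.7 and 13.8%, then 13.4 and 13.9%. In the 12-library fit the wild-type contrast of E14.5 with E10.5 was called for 5 of the 10 members and for 52.8% of all genes. Tet3 (edgeR adjusted p = 6.92e-06), Dnmt3b (0.0294) and Tet2 (0.00144) were higher at E14.5, as were 16.1% of all genes, and the change of Tet2 was from a mean of 0.036 to 0.307%. Dnmt3l fell from 80.6 to 56.2% (adjusted p = 9.65e-06) and Tet1 from 92.6 to 77.0% (3.48e-05). Between E14.5 and E18.5 liver no member was called, and 0.100% of all genes were.

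Within single stages, no start of a member was called between the genotypes, against 1.07, 0 and 0.475% of all genes at E10.5, E14.5 and E18.5. At an unadjusted p below 0.05 the edgeR test passed 2 of the 10 members at E10.5, 1 at E14.5 and 0 at E18.5. Over all genes it passed 2419 of 20066, 2354 of 21072 and 1710 of 20404 starts. Mutants lay above wild types without overlap at 3, 1 and 2 of the 10 starts (34.9, 36.4 and 27.8% of all genes) and below at 1 start, that of Tet2 at E14.5 (8.09% of all genes). The median difference of the members was 0.27, -0.04 and 0.08 points, against 0.35, 0.47 and 0.22 points over all genes. Without mutant replicate 1 the E18.5 medians were -0.03 points for the members and -0.0038 points over all genes.

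In the shores the members were more methylated and more varied, and none was called within a stage, where 3.69, 2.71 and 0.746% of all shores were. Mutants lay above wild types without overlap at 4, 3 and 5 of the 10 shores (40.1, 39.9 and 36.7% of all shores). The median difference of the members was 2.92, 1.502 and 2.68 points, against 1.97, 1.64 and 2.15 points over all shores, and without mutant replicate 1 the E18.5 medians were 2.32 and 0.72 points. Dnmt3l had 73.3 and 79.1% in the wild-type and 80.9 and 80.4% in the mutant E10.5 embryos, 55.3 and 60.8% against 61.3 and 63.4% at E14.5, and 66.9 and 67.1% against 73.4 and 69.4% at E18.5. The mutants were above the wild types at every stage, as at 11.7% of all shores. Tdg had 58.8 and 53.0% against 56.2 and 62.8%, 49.8 and 50.9% against 52.1 and 53.5%, and 45.2 and 45.4% against 53.2 and 51.7% at the 3 stages, and its groups overlapped at E10.5 alone. At E18.5 the shore difference was 4.38 points for Dnmt3l, or 2.41 without mutant replicate 1, and 7.16 points for Tdg, or 6.39 without it.

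Over the 12 libraries the shores of Dnmt3l (log2 odds ratio 0.28, SE 0.09, edgeR adjusted p = 0.0277) and Tdg (0.28, SE 0.09, adjusted p = 0.0310) were called, with 15.9% of all shores, 15.7% higher in the mutants. The Dnmt3l shore is 5156 bases around and between 3 islands, which hold 891 bases and 33 CpGs in all. No unmethylated CpG-dense stretch was found at this start, whereas the paper describes changes at the shores of unmethylated islands. The Dnmt3l shore overlaps the start window of the gene and its 1 kb tile called at E14.5, so these calls are not separate results. Exact permutation within stages gave p = 0.00926 for Dnmt3l, as at 11.4% of all shores, and p = 0.0370 for Tdg. Adjusted over all shores these were 0.0813 and 0.153, which did not pass. With limma neither passed (adjusted p = 0.0698 for Dnmt3l and 0.0671 for Tdg), nor did Tdg with a coverage minimum of 1 read (edgeR adjusted p = 0.0543). Both calls depended on single libraries. The adjusted p of Dnmt3l rose to 0.104 without wild-type replicate 1 of E10.5, 0.0558 without mutant replicate 1 of E10.5, 0.128 without wild-type replicate 1 of E14.5, 0.0531 without mutant replicate 2 of E14.5 and 0.0704 without mutant replicate 1 of E18.5. That of Tdg rose to 0.0814 and 0.0886 without wild-type or mutant replicate 2 of E10.5, 0.0592 and 0.0624 without wild-type replicate 1 or mutant replicate 2 of E14.5, 0.0727 and 0.0719 without wild-type replicate 1 or 2 of E18.5, and 0.0832 without mutant replicate 1 of E18.5. The shore of Tet3 was not called (adjusted p = 0.158) unless mutant replicate 2 of E18.5 was left out (0.0341).

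**Figure D4:**
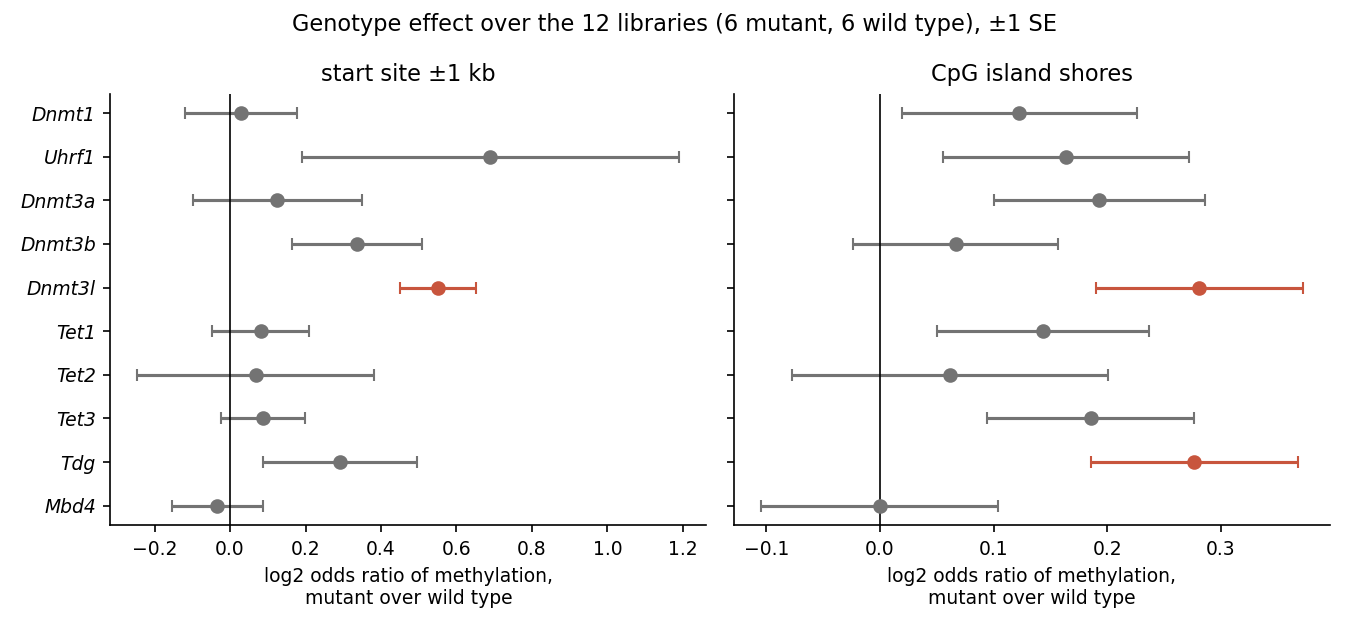
Log2 odds ratio of methylation, mutant over wild type, with its SE over the 12 libraries, for the start window and the shore of each of the 10 genes. Red points passed the test, namely Dnmt3l at its start (0.55) and Dnmt3l and Tdg in their shores (0.28 each).

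The shores of Uhrf1 and Dnmt3a were not called over the 12 libraries. At E10.5 Uhrf1 had 52.7 and 48.4% in the wild-type and 61.2 and 59.6% in the mutant embryos (9.81 points, edgeR adjusted p = 0.101), and Dnmt3a had 65.8 and 66.9% against 73.5 and 73.2% (6.97 points, adjusted p = 0.0960). Neither pair of groups overlapped. With the replicate number as a block both passed at E10.5 (adjusted p = 0.0411 and 0.0420), in a fit that called 6.82% of all shores. In the livers the Uhrf1 shore had 57.8 and 58.0% against 58.5 and 56.3% at E14.5, and 56.8 and 61.7% against 57.9 and 56.8% at E18.5. Its difference between stages did not pass the test of the interaction after adjustment (edgeR adjusted p = 1), which 0.00641% of all shores did. The Dnmt3a shore had 52.4 and 55.8% against 52.9 and 56.1% at E14.5, and 56.2 and 61.1% against 58.0 and 60.9% at E18.5, with overlap at both stages.

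The remaining shores are described by their levels. That of Tet2 was the lowest of the 10 in the livers, at 14.51 to 15.8% at E14.5 and 21.5 to 28.5% at E18.5, and had 37.1 to 39.9% at E10.5, where Dnmt3b was lower. The CpGs that passed the coverage minimum differed between stages. On the 11 CpGs that passed at all stages, the wild-type means of Tet2 were 41.9% at E10.5, 21.4% at E14.5 and 26.6% at E18.5. The 2 liver stages did not differ there (edgeR adjusted p = 0.243). Dnmt3b lay between 29.5 and 42.9%, Mbd4 between 34.8 and 51.0%, Tet3 between 45.3 and 67.5%, Dnmt1 between 48.3 and 68.8% and Tet1 between 67.3 and 88.2%. The Tet1 range is for the shore at its main start. At the RefSeq start of Tet1 the shore had wild-type means of 43.8% at E10.5, 48.6% at E14.5 and 65.6% at E18.5. Between wild-type E10.5 embryo and E14.5 liver 9 of the 10 shores changed (78.9% of all shores), and those of Tet3 (log2 odds ratio 0.84, edgeR adjusted p = 1.48e-05), Uhrf1 (0.51, 0.00854) and Dnmt3b (0.38, 0.0256) rose, as did 4.96% of all shores. Tdg was the member without a call (-0.32, adjusted p = 0.0598). Between wild-type E14.5 and E18.5 liver 1 of the 10 main-start shores was called, that of Dnmt3l, which rose (0.53, edgeR adjusted p = 0.0327), with 8.73% of all shores called. Shores at other starts also rose, namely at the RefSeq start of Tet1 (1.01, edgeR adjusted p = 0.00206) and the upstream start of Dnmt3l (0.60, 0.0107).

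Across whole gene bodies at E10.5, Dnmt3a had 67.9 and 69.4% in the wild-type and 70.3 and 73.4% in the mutant embryos (3.18 points, edgeR adjusted p = 0.0271) and Tet1 had 82.6 and 82.2% against 83.8 and 84.6% (1.80 points, adjusted p = 0.0430). The groups did not overlap for either gene. They were 2 of 10 members called, where 15% of all gene bodies were, and the mutants lay above without overlap at 6 of 10 members and 52.7% of all. The difference of Dnmt3a was 4.73 points without mutant replicate 1 and 1.64 without mutant replicate 2, and that of Tet1 was 0.885 points as a mean of the percentages of its CpGs. The adjusted p of Dnmt3a was 0.161 without wild-type replicate 1 and 0.336 without mutant replicate 2, and that of Tet1 was 0.116, 0.144 and 0.270 without wild-type replicate 1, wild-type replicate 2 and mutant replicate 2. With limma neither passed (adjusted p = 0.290 for Dnmt3a and 0.247 for Tet1), and limma called 0 gene bodies where edgeR called 2611. With a coverage minimum of 1 read the adjusted p of Tet1 was 0.0577 in edgeR. No member was called at E14.5 (0.840% of all) or E18.5 (0.165%). Leaving out a single library changed these counts, both for the members and over all gene bodies. The absence of called members at E14.5 and E18.5 did not hold for every library left out. The median difference of the members was 0.59, 1.28 and 1.47 points at the 3 stages, against 1.01, 1.59 and 1.93 points over all gene bodies. At E14.5 the difference of Dnmt3a, 1.58 points, was 0.054 without wild-type replicate 1 and 3.12 without wild-type replicate 2. Without mutant replicate 1 the E18.5 medians were -0.29 points for the members and 0.15 points over all gene bodies.

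To find local changes, 1 kb tiles with at least 8 CpGs were tested over the genome and called at an adjusted p below 0.05 and a difference above 15 points. Within 10 kb of the members, 385, 515 and 415 tiles were tested at E10.5, E14.5 and E18.5, and 1, 1 and 0 were called, where 0.370, 0.124 and 0.136% of all tiles were (0.367, 0.121 and 0.133% as higher in the mutants). Mutants lay above wild types without overlap at 115, 141 and 114 of these tiles (31.3, 33.3 and 31.0% of all) and below at 45, 50 and 32 (9.36, 6.24 and 6.49% of all). The median difference at E18.5 was 1.37 points in the members' tiles and 2.03 points over all tiles, and 0.023 and 0.35 points without mutant replicate 1.

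The called tile at E10.5, chr12:3825001-3826000, lies in an intron of Dnmt3a, 18470 bases from the nearest annotated start. Its level was 48.5 and 52.0% in the wild-type and 64.5 and 68.3% in the mutant embryos, a difference of 16.1 points (edgeR adjusted p = 0.0180). The mutants were higher at 13 of its 14 CpGs and above the wild types without overlap at 11, with a median difference of 12.2 points. These counts come from the reads on which the tile was called, so they describe the difference and do not test it. The livers had 40.0 and 39.5% against 47.6 and 49.6% at E14.5 (8.89 points, edgeR adjusted p = 0.328) and 53.5 and 49.0% against 61.1 and 53.2% at E18.5 (5.91 points, adjusted p = 0.810; 1.96 points without mutant replicate 1). The E10.5 call was lost without wild-type replicate 1 (14.4 points, adjusted p = 0.248) or mutant replicate 2 (14.2 points, 0.156), and no tile of the members passed at E10.5 when tiles were shifted by 500 bases. Over the 85 Dnmt3a tiles tested at E10.5 the median difference was 2.23 points, against 1.13 points over all tiles, and 36 had mutants above without overlap, where 31.3% of all tiles did. Over the 106 tested in E14.5 liver the median difference was 1.64 points, against 1.86 points over all tiles, and 36 tiles had mutants above without overlap, where 33.3% of all tiles did. The E14.5 median was 0.55 points over all tiles and -0.14 over the members' tiles without wild-type replicate 1, and 3.17 and 2.28 without wild-type replicate 2.

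The called tile at E14.5, chr10:77512001-77513000, contains the internal start of Dnmt3l and 315 bases of its exons. The wild-type livers had 51.1 and 43.7% and the mutants 58.4 and 66.9%, a difference of 15.3 points (edgeR adjusted p = 0.00773). Of its 20 CpGs, 18 were higher in the mutants and 14 lay above the wild types without overlap, while 1 lay below. Here too the counts come from the reads behind the call. At E10.5 the level was 73.7 and 74.4% against 82.6 and 83.2% (8.79 points, edgeR adjusted p = 0.125), and at E18.5 it was 63.8 and 63.6% against 68.2 and 71.0% (5.92 points, adjusted p = 0.778; 7.31 points without mutant replicate 1). The order of the genotypes was the same at all stages. The E14.5 call was lost without wild-type replicate 2 (11.6 points, adjusted p = 0.0638) or mutant replicate 2 (11.1 points, 0.609).

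**Figure D5:**
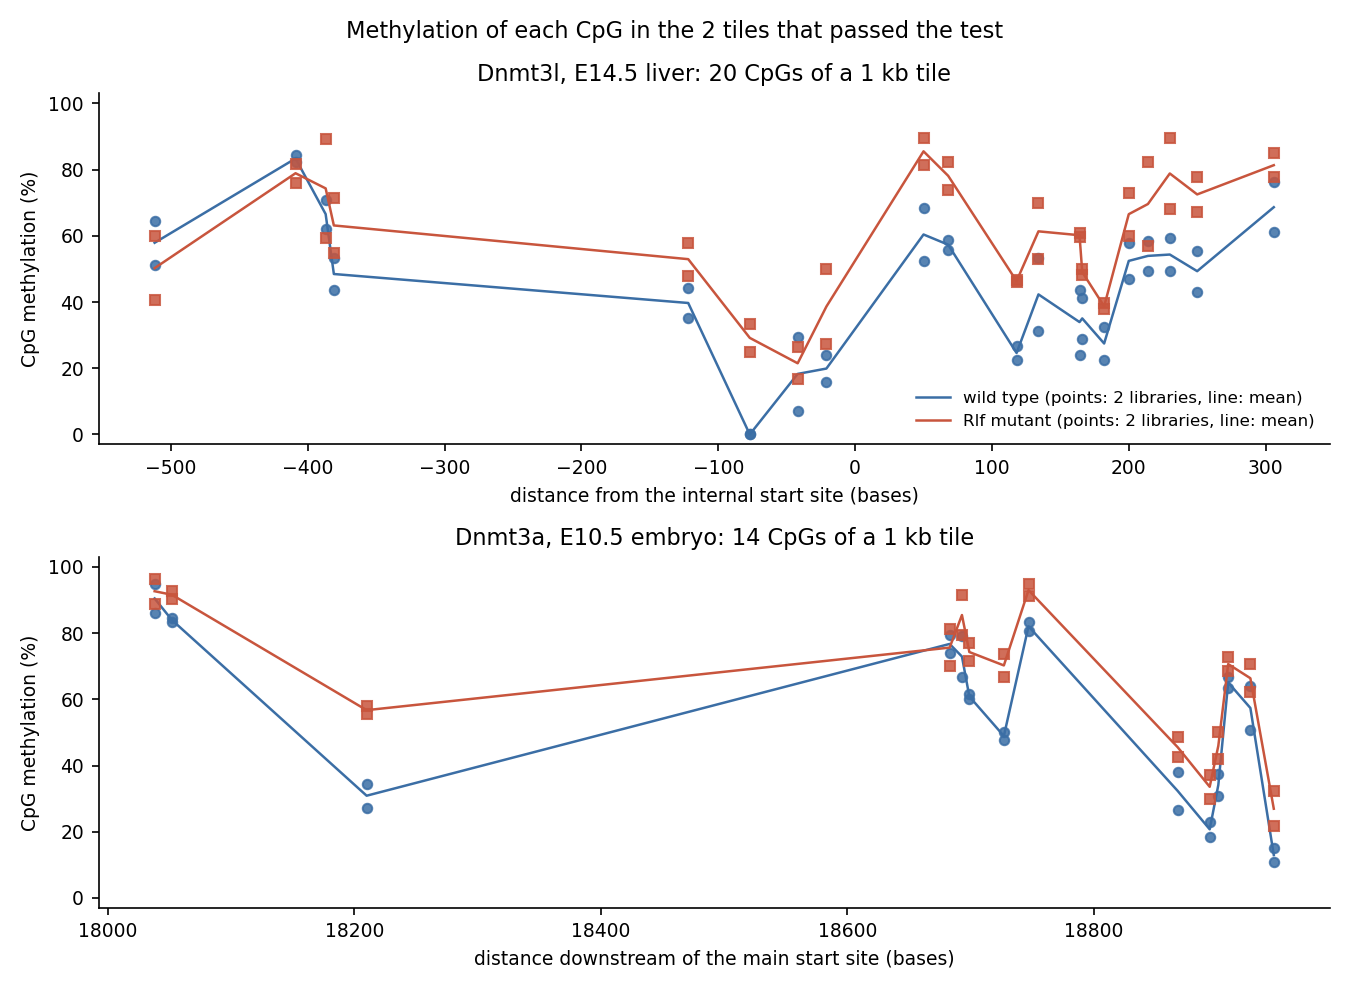
Methylation level, in percent, of each CpG in the called tile of Dnmt3l in the E14.5 livers (20 CpGs, by distance from the internal start) and of Dnmt3a in the E10.5 embryos (14 CpGs, by distance downstream of the main start). Points show single libraries, and each line is the mean of a genotype. The mutant mean lies above the wild-type mean at 18 of the 20 and at 13 of the 14 CpGs, in the same reads on which the tiles were called.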

How the data were processed

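The authors sequenced bisulphite-converted DNA with a lambda spike-in, aligned reads with Bismark and Bowtie2 to mm9 with FVB variants substituted and with the lambda and GFP transgene sequences added, removed duplicates and merged both strands of each CpG. The deposited WGBS files hold counts of methylated and unmethylated reads per CpG and the percentage of methylation that the authors rounded from them, which was not used. For RNA, the authors aligned reads with TopHat and deposited counts per Ensembl gene from HTSeq, counted without strand. BWA, DESeq, the other tools and mm9 are named in the submitters' processing notes, and the versions of the authors' tools are not repeated here. Groups came from the sample labels. The labels give separate embryos, and nothing more on how independent the replicates were; the E14.5 livers of the WGBS were from littermates.

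RNA counts were scaled by TMM, filtered with filterByExpr and tested with the quasi-likelihood test of edgeR 4.0.16 in R 4.3.3, with Benjamini-Hochberg adjustment over the 14183 genes kept. CPM used library totals scaled by the TMM factors, and RPKM divided CPM by the length of the merged exons of all annotated transcripts. Same-numbered RNA libraries deviated together (r = 0.125, 0.226 and 0.409), so a fit with replicate number as a block is given. For WGBS, CpGs with at least 6 reads in every library of a fit were summed over windows of at least 5 CpGs (starts, shores, gene bodies beyond 1 kb of the start) or 1 kb tiles, and edgeR took both read classes of each window as counts, with an intercept for each library and a common dispersion. With 2 against 2 samples an exact permutation test cannot go below p = 0.333, so the smallest stratified p over 3 stages was 0.00926. The limit set by a count of 0 covers counting error only, and the intervals of log2 differences come from the edgeR fit and include the spread between replicates. CpG islands were found in the NCBIM37 sequence (200-base windows, at least 50% GC, observed to expected CpG at least 0.6), which matched the WGBS coordinates. This rule found 170793 islands, many more than the UCSC annotation that the paper used. Starts came from GENCODE vM1, and RefSeq starts were placed on NCBIM37 by exact sequence match. On simulated E14.5 starts the WGBS test recovered 97.0% of 200 changed windows among 21090, and 1.52% of its calls were false. A first noise model that recovered none had been replaced. The planted shifts lay only in windows of intermediate level. They were larger than any genotype difference of the members' starts or shores over the 12 libraries. The simulated levels held no sex difference, whereas each E14.5 genotype had 1 male and 1 female. Recovery of differences of the members' size, or in libraries with a sex difference, was not tested. On the real E14.5 starts the same fit called 0, against 668 on autosomes alone. DESeq2 1.42.0, limma 3.58.1, other filters, windows, coverage minimums and each library left out were tried as alternatives. All 10 members are accounted for in the text by name, as are Rlf, some of the genes at the extremes of the lists, the called markers and the called tiles. The members and lists were chosen with earlier results of these data known. The cell type and pathway lists were written by hand.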

Additional observations from a re-analysis of the deposited data

How the results depend on the processing

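Alternatives named in this paragraph as dispersion settings or autosomes only were chosen after seeing the data. For RNA, 197 genes passed in all, against 532 with no filter on low counts, 460 with the replicate block, 256 with DESeq2 and 66 to 224 when a library was left out, and 0 to 1 members passed in the last. The log2 difference of Dnmt1, -0.02, ran from -0.0985 without mutant replicate 1 to 0.0755 without mutant replicate 2, where its sign changed. At the starts, Dnmt3l passed over the 12 libraries under each alternative fit of edgeR and with limma, but not by exact permutation after adjustment (0.114), and within E14.5 1 member, Dnmt3l, passed with the replicate block, with dispersion 0 and robust estimation and with autosomes only, against 0 in the stated fit. The E14.5 starts called over all genes numbered 0 in that fit and with the newer quasi-likelihood fit or a trended dispersion, 26 with a likelihood ratio test, 131 with dispersion 0, 592 with dispersion 0 and robust estimation, 668 (3.30%) on autosomes and 1069 (5.07%) with the replicate block; the cause was not tested. In the shores over 12 libraries, 2 members passed, against 1 with a coverage minimum of 1 read, 0 with limma and 0 to 3 with a library left out. At E10.5 the replicate block called 2 shores (Uhrf1, adjusted p = 0.0411, and Dnmt3a, 0.0420) against 0, where 6.82% of all shores passed, and at E14.5 leaving out a library gave 0 to 1. Of the called tiles in member loci, 1 at E10.5 became 0 with a minimum difference of 20 points or tiles shifted by 500 bases and 0 to 3 with a library left out, 1 at E14.5 became 0 at 20 points and 0 to 1 with a library left out, and 0 at E18.5 became 0 to 1. Deviations of same-numbered WGBS libraries correlated at r = 0.167 in the E10.5 shores and between -0.0633 and 0.0635 in the other starts and shores, and 2 pairs per stage do not show that the numbers pair, although in the E14.5 livers the number is also the sex. Where an arm was left with 1 library, its spread was taken as that of the other libraries. With 2 libraries per genotype and stage, the genotypes overlapped at many of the members' starts and shores, so differences of a few points were within the spread there. At the E10.5 gene bodies mutants lay above without overlap at 6 of 10 members, as at 52.7% of all.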

Other observations

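Starts within the genes, other than those described above, differed in level. Of the 9 annotated starts of Dnmt3a, that at position 3891728, 84.698 kb downstream of the main start, was low, with wild-type means of 1.27, 2.96 and 3.29% at E10.5, E14.5 and E18.5, whereas that at 3866191 had 87.5, 68.3 and 69.1%. The start at 3885449 of Dnmt3a went the other way with stage, from a wild-type mean of 29.4% in E10.5 embryo to 60.5% in E14.5 and 66.99% in E18.5 liver (log2 odds ratio of E14.5 to E10.5 1.88, edgeR adjusted p = 1.06e-05). The mutant mean there was 10.2 points higher at E10.5, 2.15 at E14.5 and 0.25 at E18.5 (12-library fit, adjusted p = 0.264). The internal starts of Tet2 (55.719 kb downstream) and Tet3 (61.773 kb downstream) were methylated at 80.4% or more of reads in the wild-type mean of every stage, and neither was called between the genotypes (adjusted p = 0.962 and 0.194).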
